A study of Mus musculus with 18 samples.

Results

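The genes described here are 44 mouse genes of mitosis and the G2/M transition. They were taken by name from a list of mitotic genes, chosen with earlier results of these data known. They were matched to array probes by RefSeq accession, and each was read from its brightest probe on average over all arrays. All 44 passed the filter on dim probes, out of 17062 named genes and 31623 genes and unnamed sequences measured. Naive CD4+ T cells (CD44low) had been sorted from the spleens of C57BL/6 mice, 1 mouse per array, and their RNA was hybridised to 18 one-colour Agilent arrays. The series asks how gene expression in T cells depends on LAT, the membrane adaptor that is phosphorylated after T cell receptor engagement and recruits signalling enzymes.

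There were 6 groups of 3 mice, and every mouse, controls included, had received tamoxifen over 1 or 4 weeks. By the sample titles, WT mice were ERCre- LAT f/-, LAT KO mice were ERCre+ LAT f/-, and Y136F mice were ERCre+ LAT f/m. The series text instead calls all mice Cre positive and the mutant Y136F/-, so the status of the controls for Cre is not settled. Y136F replaces the LAT tyrosine that binds phospholipase C-gamma by phenylalanine. Neither the promoter that drives Cre nor the age of the mice is given in the sources used here. All 6 Y136F mice and, at 1 week, 2 of 3 mice of each other genotype were labelled female, and all WT and LAT KO mice of 4 weeks were labelled male.

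A dividing cell enters mitosis when CDK1, bound to a cyclin, becomes active, builds a spindle, holds anaphase back until every kinetochore is attached, and then destroys cyclin through the anaphase-promoting complex before cytokinesis. The genes of these proteins are transcribed together late in the cell cycle: the DREAM complex holds them off in resting cells, and MYBL2, MuvB and FOXM1 activate them. A naive T cell is a resting cell that divides rarely until it meets antigen, so most mitotic transcripts are low in it.

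Levels below are log2 processed signal minus the 75th percentile of the array, so 0 is the level of that percentile and negative values lie under it. Such a level is comparable between arrays for 1 probe and not between probes. The targeted gene, Lat, lay between 3.29 and 3.85 on the WT arrays of 4 weeks, between 2.34 and 3.16 on the LAT KO arrays and between 3.86 and 4.43 on the Y136F arrays. Whether its probe lies in the deleted part was not analysed here. The T cell genes Cd3e and Cd4 had means of 4.16 to 4.42 and 2.62 to 2.98 over the 6 groups. Sex-linked genes went against the labelled sex on 2 LAT KO arrays, replicate 1 at 1 week and replicate 2 at 4 weeks. Counts without both are also given for LAT KO against WT and against Y136F at 4 weeks. They are given too for the changes between times of the Y136F effect and of the LAT KO minus Y136F difference. The LAT KO comparisons at 1 week, LAT KO over time and the change of the LAT KO effect are given with both arrays only. On LAT KO replicate 3 of 1 week, 7888 spots were marked as outliers, against 187 to 952 on the other arrays, and only 34 of the 44 genes have a value there.

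At 4 weeks most of the mitotic genes were higher in Y136F cells than in WT cells. In limma's test, 28 of the 44 were called higher and 0 lower at an adjusted p under 0.05, against 2.48% called higher and 0.92% lower of 31535 genes and sequences tested. At 4 weeks all Y136F mice were labelled female and all WT mice male, and with the labelled sex as a term 3 of the 44 were called. Counts with sex read from sex-linked genes are given further below, and the cause of the drop was not tested. The median change of the 44 was 1.25 on the log2 scale, with a quartile range of 0.67 to 1.63, against -0.19 over everything tested. The median of everything tested was -0.08 after quantile normalization and -0.05 in the deposited series matrix. Of the 42 genes with a value on all 6 arrays, 35 had every Y136F array above every WT array, which held for 9.35% of 30555 genes and sequences. These are bulk samples, in which more cycling cells and more mitotic RNA per cell cannot be told apart.

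**Figure D1:**
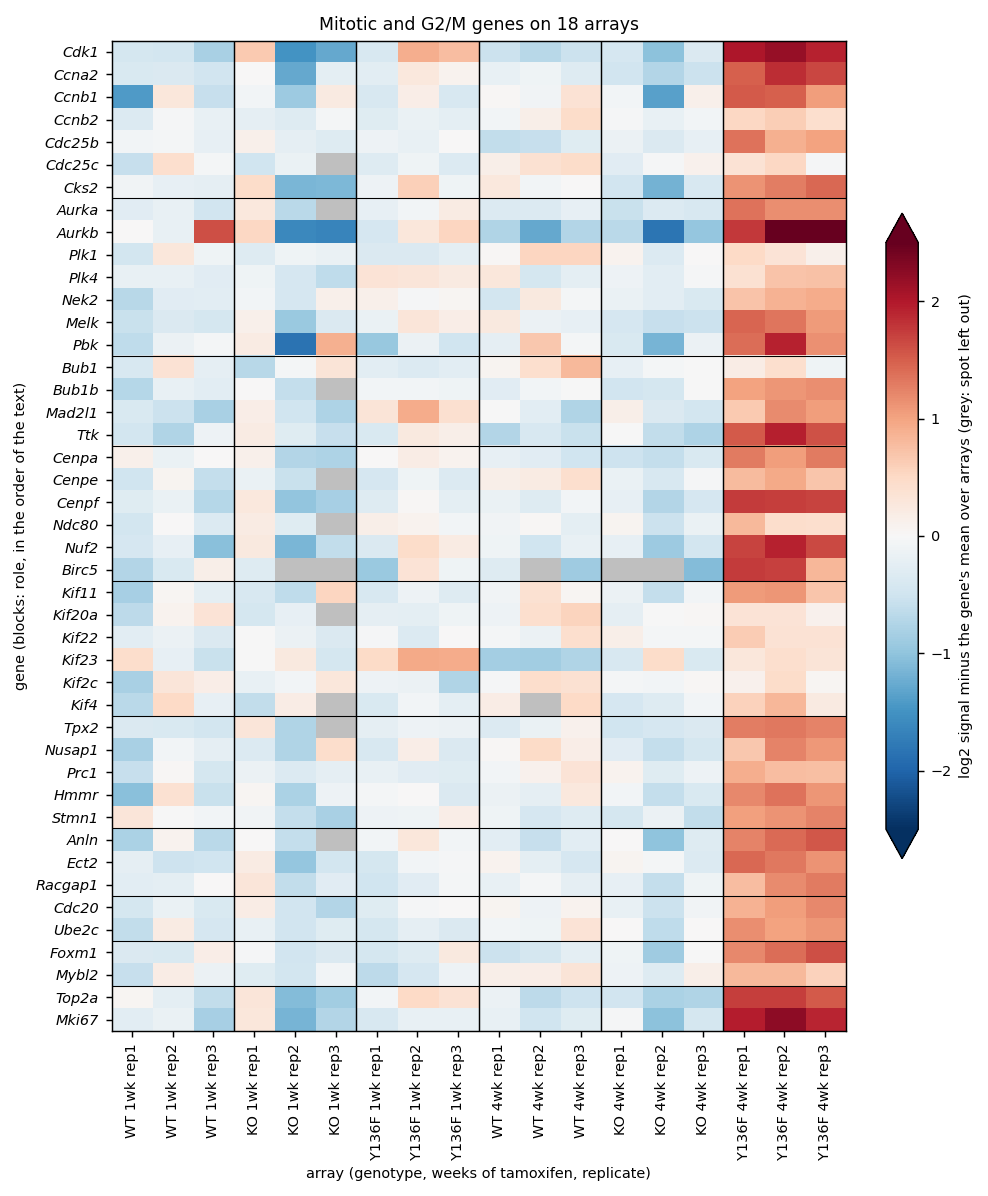
Level of each of the 44 genes (rows, in blocks by role) on each of the 18 arrays (columns), as log2 signal minus the gene's mean over arrays. Grey squares are spots left out, and colours stop at the ends of the scale. The 3 Y136F arrays of 4 weeks stand at the right in red, and 40 of the 44 genes have their highest value on one of them.

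The 3 Y136F arrays of 4 weeks stood together. As deviations from each gene's mean over arrays, the median over the 44 genes was 1.098, 1.137 and 1.085 on Y136F replicates 1, 2 and 3 of 4 weeks. On the other 15 arrays it lay between -0.59 and 0.01. Replicates 1, 2 and 3 held the highest value of 12, 17 and 11 genes. WT of 4 weeks held the highest value of 3 genes and Y136F of 1 week that of 1. The median SD of a gene within its group was 0.16 in Y136F of 4 weeks and 0.21 in WT of 4 weeks, and it was largest, 0.48 over 34 genes, in LAT KO of 1 week.

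**Figure D2:**
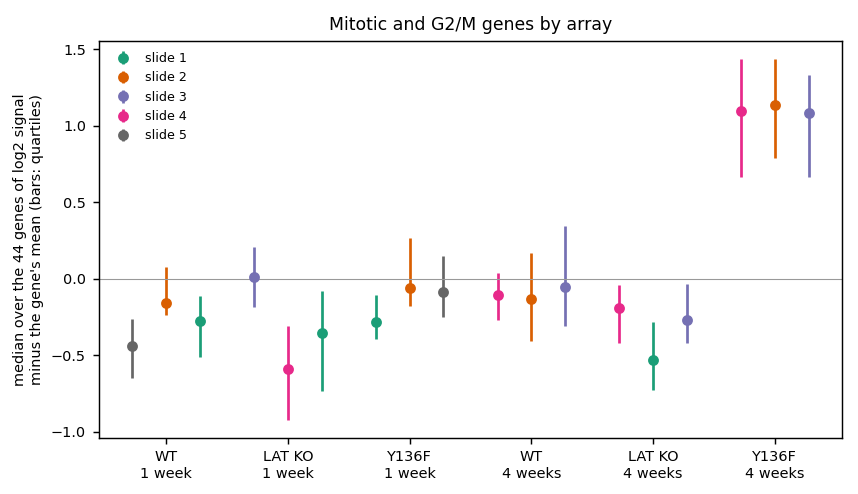
Median over the 44 genes (points) of the log2 deviation from the gene's mean over arrays, with quartiles (bars), for each array by group (x axis) and slide (colour). The Y136F arrays of 4 weeks lie between 1.09 and 1.14, and no other array exceeds 0.01.

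The arrays came from 5 slides, and Y136F and WT arrays of 4 weeks shared a slide in 3 cases. Within these slides the median difference of the genes was 1.19 on slide 4, where all 44 genes were higher in Y136F. It was 1.31 on slide 2, with 40 of 42 genes higher, and 1.14 on slide 3, with 36 of 44 higher. On slides 4, 2 and 3, 45.9%, 36.2% and 36.5% of everything measured was higher in Y136F. Of the 42 genes measured in all 3 pairs, 35 were higher in every pair and 0 were lower in every pair.

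Most of these genes carry, close to their start site, the sequence elements through which late cell cycle genes are regulated. These are the cell cycle homology region, read by MuvB, here searched as its core TTTGAA, and the CCAAT box, read by NF-Y, both on either strand. RefSeq promoter windows of assembly GRCm38.p6, 250 bases before to 50 after the start site, were held for 36 of the 44 genes. TTTGAA was found in 23 of the 36 (63.9%, Wilson 95% interval 47.6% to 77.5%) and in 20.2% of the windows of 27025 genes. With TTCGAA counted too it was 25 of 36 (69.4%), against 21.7%. CCAAT was found in 26 (72.2%, interval 56.0% to 84.2%) against 41.1%, and both in 20 (55.6%) against 8.0%. Among the 23 genes with TTTGAA, the match nearest to the start site began within 50 bases of it in 21. A match describes letters and is not evidence of binding. The promoters shown are the 6 of smallest p in Y136F against WT at 4 weeks among genes whose window held either element. Each line gives 150 bases before and 25 after the start site, 5' to 3' along the gene, with every match to either element, on either strand, in capitals. The windows are Cdc25b at chr2:131186798-131186972 (plus strand), Cenpa at chr5:30666736-30666910 (plus strand), Mki67 at chr7:135716355-135716529 (minus strand), Cenpf at chr1:189688062-189688236 (minus strand), Top2a at chr11:99024165-99024339 (minus strand) and Ttk at chr9:83834539-83834713 (plus strand).
Cdc25b promoter: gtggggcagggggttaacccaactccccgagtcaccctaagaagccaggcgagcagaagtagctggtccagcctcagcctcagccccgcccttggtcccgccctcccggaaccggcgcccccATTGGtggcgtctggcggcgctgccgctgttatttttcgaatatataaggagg
Cenpa promoter: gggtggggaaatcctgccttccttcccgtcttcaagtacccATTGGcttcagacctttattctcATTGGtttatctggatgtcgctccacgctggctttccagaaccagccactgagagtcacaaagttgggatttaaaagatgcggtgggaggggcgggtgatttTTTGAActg
Mki67 promoter: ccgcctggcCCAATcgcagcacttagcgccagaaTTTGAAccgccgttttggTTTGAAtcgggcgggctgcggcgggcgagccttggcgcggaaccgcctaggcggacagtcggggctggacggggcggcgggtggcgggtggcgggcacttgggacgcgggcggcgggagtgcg
Cenpf promoter: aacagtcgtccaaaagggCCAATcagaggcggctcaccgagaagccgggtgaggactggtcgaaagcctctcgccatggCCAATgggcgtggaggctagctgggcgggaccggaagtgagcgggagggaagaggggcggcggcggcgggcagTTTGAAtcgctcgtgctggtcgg
Top2a promoter: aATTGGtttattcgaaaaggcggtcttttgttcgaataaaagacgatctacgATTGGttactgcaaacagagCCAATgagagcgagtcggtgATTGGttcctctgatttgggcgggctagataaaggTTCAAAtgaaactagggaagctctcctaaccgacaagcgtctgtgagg
Ttk promoter: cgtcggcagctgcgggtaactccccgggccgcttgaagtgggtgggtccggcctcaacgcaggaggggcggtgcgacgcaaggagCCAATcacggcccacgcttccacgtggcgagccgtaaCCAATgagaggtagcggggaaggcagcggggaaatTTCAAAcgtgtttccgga

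The Cenpa, Cenpf and Ttk windows show a common layout, with a pair of CCAAT boxes upstream and the homology region core after the start site. The strands differ: the Ttk core and the Cenpa boxes lie on the reverse strand. Top2a has 4 CCAAT boxes and 1 core on this stretch, the core beginning at -23, and another core at -179, outside the bases shown. Cdc25b has 1 box and no exact core, and the Mki67 cores begin at -116 and -98. Of the 23 genes called higher that have a window, 16 held TTTGAA and 17 held CCAAT.

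**Figure D3:**
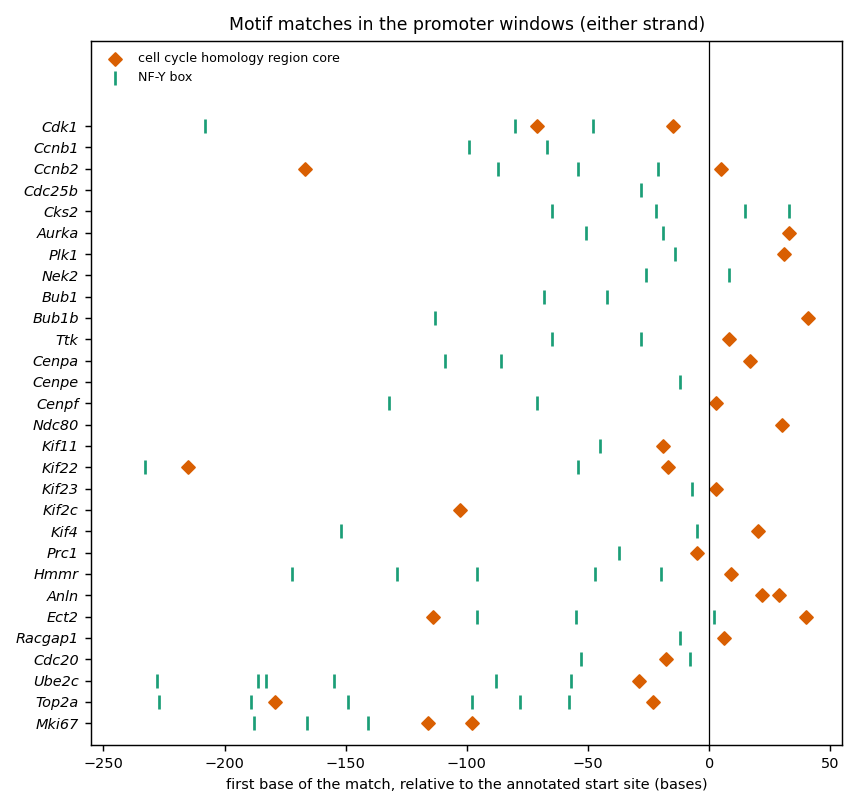
Position of each motif match (x axis, bases from the annotated start site, either strand) for the genes with a match (rows). Diamonds are the homology region core and ticks the box read by NF-Y. In 21 of 23 genes a core lies within 50 bases of the start site.

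Of the 7 genes of the CDK1 engine, which drive entry into mitosis, 3 were called higher in Y136F cells at 4 weeks, namely Cdk1, Ccna2 and Cdc25b. Cdk1, the kinase at the centre of mitotic entry, was at -4.38, -4.54 and -4.38 on the WT arrays and at -1.82, -1.68 and -1.93 on the Y136F arrays. LAT KO arrays had -4.27, -4.88 and -4.21 and overlapped WT. The difference of Y136F from WT was 2.62 ± 0.44 (log2, limma SE), a 6.15-fold change (limma adjusted p = 0.00223). Ccna2, cyclin A2, was at -3.19, -3.11 and -3.32 in WT and at -1.51, -1.15 and -1.33 in Y136F, a difference of 1.88 ± 0.27 (limma adjusted p = 0.000676). Cdc25b, the phosphatase that starts CDK1 activation, had the smallest p of the 44 genes. Its WT arrays read 0.40, 0.44 and 0.73, its LAT KO arrays 0.88, 0.67 and 0.81, and its Y136F arrays 2.38, 1.91 and 2.03. That is a difference of 1.58 ± 0.15 (limma adjusted p = 1.44e-05), and no Y136F value came near the other groups.

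Ccnb1, Ccnb2, Cks2 and Cdc25c were not called against WT. Ccnb1, cyclin B1, was at -3.53, -3.65 and -3.20 in WT and at -2.03, -2.08 and -2.52 in Y136F, so the groups did not overlap. Its difference of 1.25 ± 0.42 had a limma adjusted p of 0.138. Cks2, a small CDK-binding subunit, missed the threshold with 1.21 ± 0.33 (limma adjusted p = 0.0531). Ccnb2, cyclin B2, differed by 0.34 ± 0.15. Cdc25c, a relative of Cdc25b, differed by -0.04 ± 0.23, with its WT and Y136F arrays intermixed between -2.15 and -1.61.

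Of the 7 mitotic kinases, 5 were called higher in Y136F. Aurka, the centrosomal Aurora kinase, lay at -2.04, -2.04 and -1.90 in WT and at -0.34, -0.53 and -0.53 in Y136F, a difference of 1.52 ± 0.20 (limma adjusted p = 0.000505). Aurkb, the Aurora kinase of the centromere and midzone, had the largest difference of the 44, 3.30 ± 0.58 (limma adjusted p = 0.00294). It was at -5.91, -6.42 and -5.88 in WT and at -3.38, -2.61 and -2.33 in Y136F. On 1 of these WT arrays and on 2 of the 3 LAT KO arrays of 4 weeks its spot was not well above background, so the low levels are loosely measured. One WT array of 1 week reached -3.53, close to the lowest Y136F array.

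Melk, a maternal embryonic leucine zipper kinase, differed by 1.32 ± 0.23, Nek2, a centrosome separation kinase, by 0.93 ± 0.19, and Plk4, which starts centriole duplication, by 0.75 ± 0.18. Pbk, a kinase active in mitosis, differed by 1.36 ± 0.53 (limma adjusted p = 0.204). It varied from -4.85 to -3.95 among the WT arrays and from -3.47 to -2.69 in Y136F. Plk1, the Polo-like kinase of mitotic entry and exit, was at 0.79, 1.30 and 1.29 in WT and at 1.25, 1.1 and 0.89 in Y136F. These groups overlapped, with a difference of -0.05 ± 0.18.

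The spindle checkpoint holds the anaphase-promoting complex inactive until kinetochores are attached, and 3 of its 4 genes were called higher. Ttk, the MPS1 kinase that starts checkpoint signalling, was at -5.21, -4.88 and -5.03 in WT and at -2.95, -2.54 and -2.89 in Y136F. Its difference was 2.25 ± 0.31, a 4.75-fold change (limma adjusted p = 0.000479). Bub1b, which encodes BUBR1, differed by 1.21 ± 0.24 and Mad2l1, which encodes MAD2, by 1.29 ± 0.25. Bub1, a kinetochore kinase of the checkpoint, differed by -0.27 ± 0.25 on its brightest probe, with both groups between -1.41 and -0.48.

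At the centromere and kinetochore 4 of 6 genes were called. Cenpf, a large outer kinetochore protein of late cell cycle, was at -0.16, -0.33 and -0.06 in WT and at 1.75, 1.72 and 1.69 in Y136F. The difference was 1.90 ± 0.25 (limma adjusted p = 0.000339). Cenpa, the histone H3 variant that marks the centromere, was at -0.88, -0.96 and -1.16 in WT and at 0.62, 0.37 and 0.63 in Y136F, a difference of 1.54 ± 0.19. Nuf2, a subunit of the NDC80 complex that grips microtubules, differed by 2.01 ± 0.30. Ndc80, its partner in that complex, differed by 0.65 ± 0.19 (limma adjusted p = 0.0706), and Cenpe, a kinetochore motor, by 0.55 ± 0.19. Birc5, which encodes survivin of the chromosomal passenger complex, differed by 2.03 ± 0.38 (limma adjusted p = 0.0102). It was at 2.24 and 1.67 on the WT arrays that kept a value, at 1.47 on the only such LAT KO array, and at 4.31, 4.26 and 3.38 in Y136F. With outlier spots kept, the Birc5 mean at 4 weeks was 2.496 (SD 0.980) in WT and 2.153 (SD 0.682) in LAT KO. The Y136F mean was 3.984 with or without them. The WT spot left out thus read higher than those kept, and the difference from Y136F was smaller with it.

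Of the 6 kinesins 1 was called, and their median change was 0.29. Kif23, a motor of the central spindle, was called higher with 1.17 ± 0.25 (limma adjusted p = 0.0124). It was at -0.79, -0.82 and -0.70 in WT of 4 weeks and at 0.34, 0.47 and 0.38 in Y136F of 4 weeks, and higher still, at 0.54, 1.00 and 0.98, in Y136F of 1 week. WT of 4 weeks had the lowest mean of the 6 groups. WT of 1 week, at 0.49, -0.14 and -0.50, and LAT KO of 4 weeks, at -0.35, 0.52 and -0.32, overlapped Y136F of 4 weeks. The fall of Kif23 by 0.44 in Y136F between 1 and 4 weeks was the single negative change of the 44 genes over that time, and it was not called. Kif11, the motor that pushes spindle poles apart, differed by 0.85 ± 0.28 between Y136F and WT, and Kif22, a chromosome arm motor, by 0.37 ± 0.16. Kif4, a chromosome-bound motor, differed by 0.20 ± 0.30, Kif20a, a cytokinesis motor, by -0.02 ± 0.23, and Kif2c, a microtubule depolymerase, by -0.06 ± 0.27.

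Among proteins that build and organise spindle microtubules, 4 of 5 were called. Stmn1, which encodes the tubulin-binding protein stathmin, was at 2.74, 2.43 and 2.52 in WT and at 3.87, 3.96 and 4.09 in Y136F, a difference of 1.41 ± 0.18 (limma adjusted p = 0.000253). Tpx2, an activator of Aurora A, was at -3.04, -2.87 and -2.59 in WT and at -1.43, -1.39 and -1.46 in Y136F, a difference of 1.41 ± 0.23. Hmmr, a spindle pole protein, differed by 1.26 ± 0.30, and Prc1, the bundler of midzone microtubules, by 0.68 ± 0.16. Nusap1, a microtubule stabiliser, was not called at 0.77 ± 0.27 (limma adjusted p = 0.147).

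All 3 cytokinesis genes were called higher. Anln, the scaffold anillin of the contractile ring, differed by 1.77 ± 0.28, Ect2, an exchange factor needed for cleavage furrow formation, by 1.49 ± 0.25, and Racgap1, the partner of Kif23 in centralspindlin, by 1.24 ± 0.21. Cdc20, the activator of the anaphase-promoting complex, and Ube2c, its ubiquitin-conjugating enzyme, both differed by 1.03, with SEs of 0.20 and 0.22. Of the transcription factors, Foxm1 was at -2.02, -1.91 and -1.72 in WT and at -0.27, -0.07 and 0.13 in Y136F, a difference of 1.81 ± 0.24 (limma adjusted p = 0.000392). Mybl2, a partner of MuvB, differed by 0.51 ± 0.20 and was not called.

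Top2a, the topoisomerase that untangles chromosomes, read -0.67, -1.18 and -1.04 on the WT arrays. The LAT KO arrays had -1.0, -1.33 and -1.29, and the Y136F arrays 1.20, 1.20 and 1.00. Its difference from WT was 2.10 ± 0.28 (limma adjusted p = 0.000386). Mki67, the gene of the proliferation antigen Ki-67, read -0.43, -0.75 and -0.56 on the WT arrays. The LAT KO arrays had -0.28, -1.28 and -0.69, and the Y136F arrays 1.72, 1.98 and 1.66. Its difference of 2.37 ± 0.30 was a 5.15-fold change (limma adjusted p = 0.000246). In both genes WT and LAT KO arrays overlapped and the Y136F arrays stood clear of them.

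**Figure D4:**
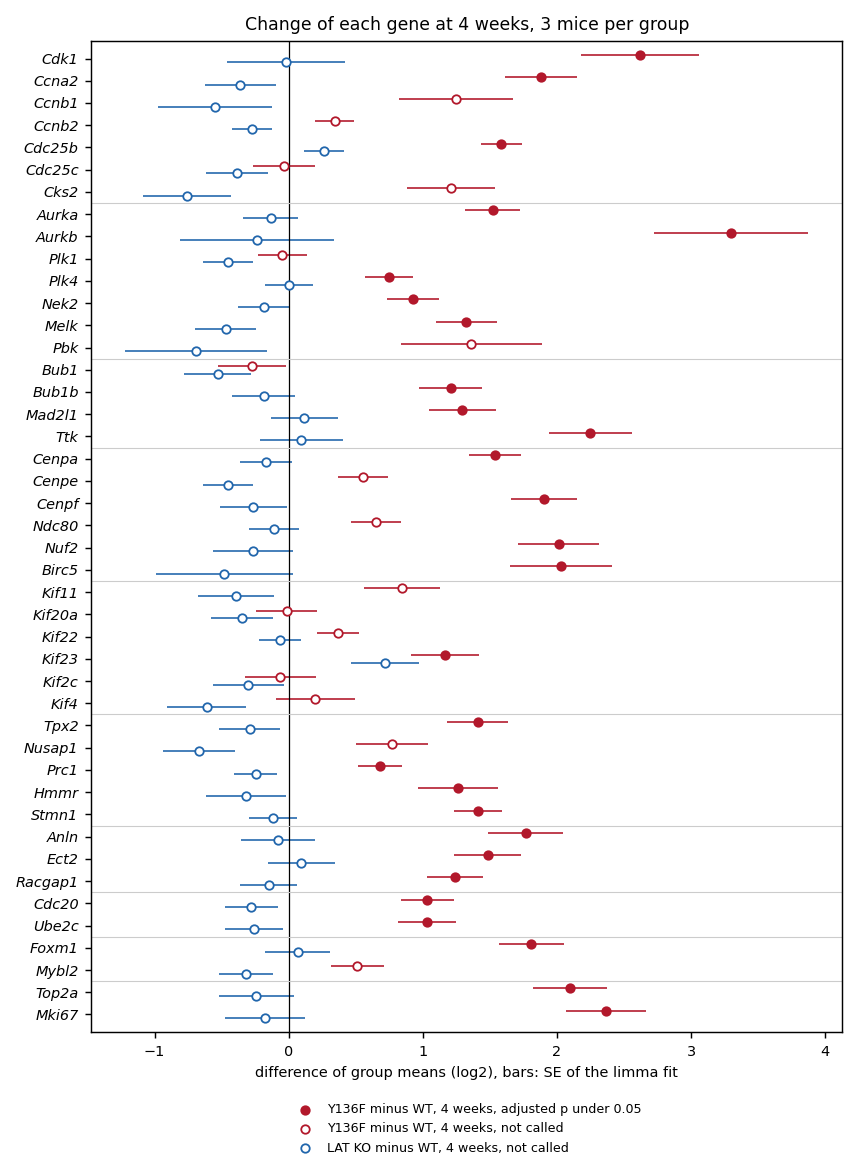
Difference from WT at 4 weeks (x axis, log2, bars are limma SEs) for Y136F (red) and LAT KO (blue), by gene in the order of the text. Filled points are the 28 genes called in Y136F, which lie between 0.68 and 3.30, and no LAT KO point is filled.

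The probes of a gene did not always give the same answer. The 44 genes had 65 probes, and 18 genes had more than 1. Fitted one by one and adjusted over 39985 probes, 42 of the 65 were called higher in Y136F than in WT at 4 weeks and 0 lower, and 34 genes had at least 1 called probe. In 6 genes a dimmer probe was called where the brightest was not. For Bub1 the dimmer probe gave 2.07 ± 0.49 (limma adjusted p = 0.0229) where the brightest gave -0.27. For Cdc25c the dimmer probe gave 1.85 ± 0.38 against -0.04, and for Kif11 2.31 ± 0.45 against 0.85. Both dimmer probes of Cenpe gave 1.73 and 1.92 against 0.55. One further probe each of Ccnb1 and Cks2 was called, at 1.78 and 1.14.

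In 5 genes the brightest probe was called and the other was not. The second probe of Cdk1 differed by -0.28 ± 0.31 where the brightest gave 2.62, and the second probe of Cenpf by 0.26 ± 0.42 where the brightest gave 1.90. For Plk4 the other probe gave 0.18 ± 0.29 against 0.75, for Kif23 0.83 ± 0.23 against 1.17 (limma adjusted p = 0.0561) and for Ect2 1.28 ± 0.48 against 1.49 (limma adjusted p = 0.182). Both probes of Mki67 (2.37 and 2.59), of Top2a (2.10 and 2.16), of Stmn1 (1.41 and 2.003), of Anln (1.77 and 1.24) and of Racgap1 (1.24 and 1.56) were called, as were all 3 of Cdc25b (1.58, 1.45 and 2.06). For Bub1, Cdc25c, Cdk1, Cenpe, Cenpf and Kif11 the probes lay over 1 log2 unit apart, so their values describe a probe rather than the gene. The 2 probes of Bub1 carry different accessions in the files, while the probes of each other gene share one.

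**Figure D5:**
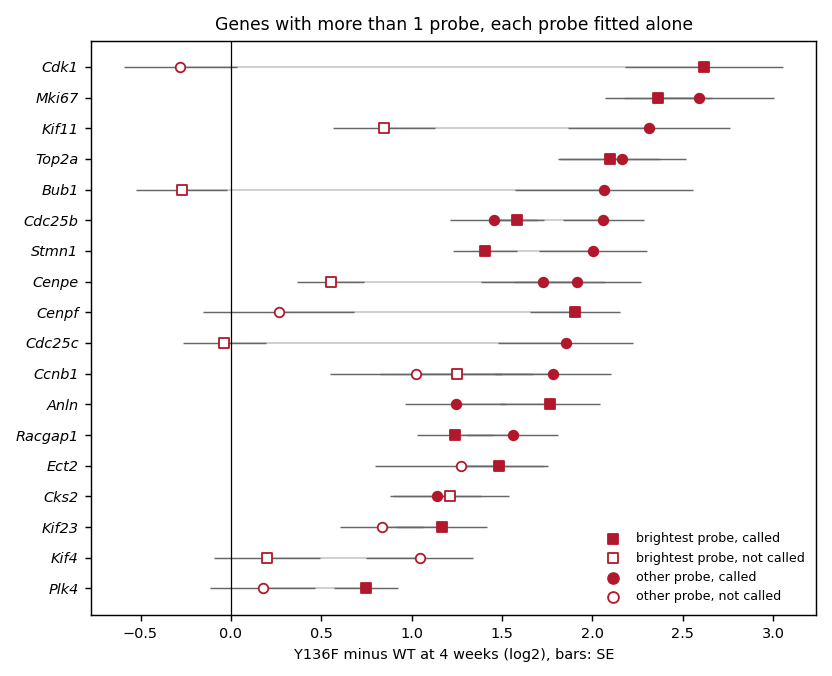
Difference between Y136F and WT at 4 weeks (x axis, log2, bars are limma SEs) for each probe of the 18 genes with more than 1 probe. Squares are the brightest probe, circles the others, and filled symbols were called. The 3 probes of Cdc25b lie between 1.45 and 2.06, and those of Cdk1 at 2.62 and -0.28.

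No rise was called in LAT KO cells. At 4 weeks 0 of the 44 genes were called against WT in limma's test, against 0.0983% of everything tested, and 5 had an unadjusted p under 0.05. The median change was -0.26, against -0.17 over everything tested. Of the 44 changes 38 were below 0, as were 20590 of 31547 over everything tested. The lowest was that of Cks2, -0.76 ± 0.33. The highest was that of Kif23, 0.72 ± 0.25 (limma adjusted p = 0.356). Without the 2 arrays whose sex-linked genes went against the label the count was again 0. With array weights, which favour arrays that fit the group means, 2 genes were called higher and 3 lower. Of the 42 genes with all 6 values, 10 had every LAT KO array below every WT array and 1 had every one above. Over everything measured these numbers were 4233 and 2871 of 30593.

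Set against Y136F directly at 4 weeks, 36 of the 44 genes were lower in LAT KO and 0 higher, where 2.33% and 1.05% of 31554 genes and sequences were. The median change was -1.39 against 0.03 over everything tested. All 44 changes were below 0, as were 14320 of 31554 over everything tested. This comparison shares the Y136F arrays with the one against WT. In 40 of the 43 genes with all 6 values every LAT KO array lay below every Y136F array, which held for 9.61% of everything measured. The count included 8 genes not called in Y136F against WT but called here and over time, namely Ccnb1, Ccnb2, Cenpe, Cks2, Kif11, Mybl2, Nusap1 and Pbk. Cks2, for example, read -1.45, -2.15 and -1.36 on the LAT KO arrays against 0.16, 0.31 and 0.47 on the Y136F arrays, a difference of -1.97 ± 0.33 (limma adjusted p = 0.00204). Without the 2 arrays whose sex-linked genes went against the label, 29 genes were lower.

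At 1 week no mitotic gene was called between genotypes. In limma's test 0 of the 44 were called in Y136F against WT (0.0158% of everything tested), with 7 at an unadjusted p under 0.05. The counts were also 0 in LAT KO against WT (0.019%), with 3 at an unadjusted p under 0.05, and in LAT KO against Y136F (0.0%), with 9. The median change in Y136F against WT was 0.17, against -0.12 over everything tested. Of the 44 changes 31 were positive, as were 10472 of 31551 over everything tested. The largest was that of Mad2l1, with 0.82, 0.65 and 0.39 on the WT arrays and 1.52, 2.11 and 1.59 on the Y136F arrays, which do not overlap. The difference was 1.12 ± 0.25 (limma adjusted p = 0.166). Every Y136F array lay above every WT array in 9 of the 44 genes at 1 week, where 4.46% of everything measured did.

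The rise can be followed within the Y136F genotype, where all 6 mice were labelled female and no array's sex-linked genes went against the label. Between 1 and 4 weeks of tamoxifen 35 of the 44 genes were called higher and 0 lower, against 4.22% and 3.45% of 31542 genes and sequences. The median change was 1.19 against 0.13 over everything tested. In 42 of the 44 genes every array of 4 weeks lay above every array of 1 week, which held for 21.7% of everything measured. Mki67 rose by 2.30 ± 0.30 from -0.65, -0.44 and -0.44 (limma adjusted p = 0.000191), Cenpf by 1.90 ± 0.25 from -0.33, 0.04 and -0.25, and Ccna2 by 1.64 ± 0.27 from -3.27, -2.73 and -2.90. Cdk1 rose by 1.61 ± 0.44 from -4.24, -2.95 and -3.08, and 2 of its 3 arrays of 1 week lay over 1 log2 unit above the highest WT array, at -4.29. These values are those of the brightest probes. The second probe of Cdk1 changed by 0.46 ± 0.31 (limma adjusted p = 0.375) and that of Cenpf by 1.35 ± 0.42 (limma adjusted p = 0.0532), and neither was called. Plk1 and Kif22, not called in the other comparisons, were called here with 0.65 ± 0.18 and 0.57 ± 0.16. One slide held an array of each time, and on it 43 of the 44 genes were higher at 4 weeks, with a median difference of 1.15. With slide as a fixed term 19 genes were called.

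No such change was called in WT or LAT KO cells. In limma's test 0 genes were called between times in WT and in LAT KO, where 0.0% of everything tested was called, with 9 and 0 at an unadjusted p under 0.05. The median changes were 0.27 and -0.04, against 0.21 and 0.07 over everything tested. The change of the Y136F effect between times was itself tested. Its median was 0.91, and it was called higher in 7 genes and lower in 0, against 0.393% and 0.124% of everything tested. The 7 were Cdc25b, Stmn1, Cenpa, Foxm1, Mki67, Cenpf and Racgap1. In Cdc25b, Stmn1, Cenpa and Foxm1 the WT mean itself was lower at 4 weeks than at 1 week. Leaving out 1 of the 12 arrays involved gave 5 genes without WT replicate 1 at 1 week, 2 without Y136F replicate 1 at 1 week or WT replicate 2 at 4 weeks, and 3 or 4 without any of the others. Without the 2 LAT KO arrays whose sex-linked genes went against the label, which enter this test through the shared estimate of spread, 16 were called. The difference between LAT KO and Y136F became lower between times in 13 genes (1.0% of everything tested), in 3 without those 2 arrays, and in 0 with slide as a fixed term. Leaving out a LAT KO array of 1 week gave 4, 22 and 11 genes (replicates 1, 2 and 3), and leaving out one of 4 weeks gave 10, 2 and 8. Leaving out a Y136F array of 1 week gave 2, 7 and 6 genes, and one of 4 weeks 5, 5 and 6. The change of the LAT KO effect against WT was called in 0 genes (0.0%), with 1 at an unadjusted p under 0.05.

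Over the 3 comparisons with calls at 4 weeks or over time, which share the Y136F arrays of 4 weeks, 25 genes were called in all 3. Kif23, Mad2l1 and Plk4 were called against WT but not over time, and Ndc80 was called only against LAT KO. On their brightest probe Bub1, Cdc25c, Kif20a, Kif2c and Kif4 were called in none of the 3. The dimmer probes of Bub1, Cdc25c and Kif4 were called higher in Y136F over time and lower in LAT KO than in Y136F at 4 weeks.

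Sex differed between the groups compared at 4 weeks, since Y136F mice were labelled female and WT and LAT KO mice male, and within that time sex and genotype cannot be told apart in Y136F against WT. With the labelled sex as a term in the model, which then rests on the mixed groups of 1 week, the median change of the 44 genes in Y136F against WT at 4 weeks was 1.28 with 3 called, and the median SE rose from 0.24 to 0.37. Over everything tested 0.266% was then called. With sex read from sex-linked genes instead 29 genes were called, with a median of 1.54, and with only the arrays whose sex-linked genes went with the label and sex as a term 19 were. In LAT KO against Y136F the counts were 13, 36 and 23, and in Y136F over time 35 in each of these fits.

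Other genes of the same processes were counted from lists made with earlier results of these data known, to be read against the 2.48% called higher over everything tested. Of 73 further mitotic genes tested, 28 were higher in Y136F than in WT at 4 weeks, 0 lower and 45 not called, with a median of 0.62. Those of smallest p were Dlgap5, a spindle protein (1.26 ± 0.19), Nsl1, a kinetochore subunit (1.60 ± 0.25), Cdca8, which encodes borealin (1.67 ± 0.28), and Ncapd2, a condensin subunit (0.93 ± 0.16). Of 39 DNA replication genes 18 were higher, 0 lower and 21 not called, with a median of 0.66, led by Mcm10 (1.25 ± 0.17), Ccne2, cyclin E2 (1.27 ± 0.19), Cdt1, an origin licensing factor (0.94 ± 0.14), Tyms, thymidylate synthase (1.72 ± 0.27), and Rrm2, a ribonucleotide reductase subunit (2.497 ± 0.402).

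In a list of 22 genes that joins regulators of the DREAM and MuvB system with E2F factors, 6 were higher, 0 lower and 16 not called. The median was 0.23. The 5 of smallest p were E2f3 (1.27 ± 0.19), E2f2 (1.23 ± 0.18), E2f1 (1.51 ± 0.28) and E2f8 (2.60 ± 0.48), all E2F factors, and Tfdp1, an E2F dimer partner (0.69 ± 0.16). None of the 16 genes of the anaphase-promoting complex and its inhibitors was called in limma's test, with 1 at an unadjusted p under 0.05 and a median of 0.07. Of 12 G1 genes 2 were higher, Cdk6, a cyclin D-dependent kinase (1.40 ± 0.18), and Cdkn1a, which encodes the CDK inhibitor p21 (0.84 ± 0.19).

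Markers of cell state and of other cell types also moved in Y136F cells at 4 weeks, and their part in the change of the mitotic genes was not tested. Of 12 markers of activated T cells 5 were higher than in WT, namely Gzma (6.64 ± 0.61), Itgb1 (2.31 ± 0.27), Gzmb (3.81 ± 0.54), Ifng (2.67 ± 0.44) and Cxcr3 (1.68 ± 0.38). As a sum of signals relative to the 75th percentile, 11 of them measured on every array came to 79.0 to 87.1 in Y136F, 42.3 to 59.4 in WT and 36.2 to 50.7 in LAT KO of 4 weeks. Among 12 markers of naive CD4+ T cells, the homing receptor gene Ccr7 fell by 1.36 and Cd5 rose by 0.65. Their sum was 134 to 140 in Y136F, 146 to 165 in WT and 149 to 154 in LAT KO.

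Of 8 plasma cell markers Jchain (3.19 ± 0.53), Xbp1 (1.31 ± 0.25), Prdm1 (1.20 ± 0.25) and Mzb1 (1.15 ± 0.29) were higher and Irf4 fell by 1.05. The sum over 7 of them was 7.22 to 9.1 in Y136F, 3.62 to 3.94 in WT and 3.08 to 3.44 in LAT KO. None of 12 B cell markers was called in limma's test, with 1 at an unadjusted p under 0.05. Their sum over 11 genes was 17.9 to 31.5 in Y136F, 13.8 to 16.8 in WT and 7.15 to 24.2 in LAT KO.

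Of 7 basophil and mast cell markers Hdc (3.23 ± 0.22) and Cpa3 (3.98 ± 0.82) were higher, and the sum was 3.74 to 5.29 in Y136F, 1.47 to 1.84 in WT and 1.0 to 1.28 in LAT KO. The list did not rise as a whole, with 3 changes above 0, 4 below and a median of -0.09. A sum weighs bright genes most, and Hdc lay at 1.33 to 1.64 in Y136F against -2.07 to -1.43 in WT. S100a8 was higher among 10 myeloid markers (2.99 ± 0.76), whose sum over 8 genes was 3.9 to 5.52 in Y136F, 4.42 to 5.33 in WT and 3.89 to 4.62 in LAT KO. Eomes was higher among 7 markers of CD8 T and NK cells (2.62 ± 0.38), whose sum over 5 genes was 3.25 to 4.07 in Y136F, 2.89 to 3.14 in WT and 2.81 to 3.2 in LAT KO. Cd8a itself lay between -0.96 and -0.79 in Y136F and between -1.21 and -0.99 in WT. None of 8 erythroid markers was called in limma's test, with 2 at an unadjusted p under 0.05, and the sum over 6 genes was 5.24 to 9.46 in Y136F, 4.76 to 9.12 in WT and 4.51 to 5.67 in LAT KO.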

How the data were processed

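Cy3-labelled RNA was hybridised to Agilent 4x44k mouse arrays. The deposited scanner files hold spot intensity on a linear scale, already background-corrected in the processed signal column, from Feature Extraction 10.5.1.1 per the file headers. The submitters' processing notes name Feature Extraction 10.5 and limma. The authors' deposited series matrix is on a log2 scale and served as an alternative. Here the processed intensity was put on a log2 scale and centred on the array's 75th percentile over 43379 non-control spots, without spots marked as outliers. Spots of a probe were averaged. Accessions named 24844 of 41174 probes (RefSeq, GRCm38.p6). A gene's brightest probe was kept if well above background on at least 3 arrays.

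limma 3.58.1 in R 4.3.3 (statmod 1.5.0) fitted 1 mean per group over all 18 arrays, with an intensity trend, 12 residual degrees of freedom and two-sided Benjamini-Hochberg adjustment over everything tested, at a threshold of 0.05. The script was tested on simulated data. All 44 genes are named; of each further list, at most 5 called genes of smallest p per direction. The members and lists were chosen with earlier results of these data known. On each array 84.2% to 97.9% of spots were well above background and 0 were saturated, and the number of arrays limits the precision. Alternatives changed background correction (normexp, offset 50, on median signal), scaling, filter, probes, slide, sex, replicate block, arrays and weights.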

Additional observations from a re-analysis of the deposited data

Results flagged for a closer look

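The following differences between groups changed between 1 and 4 weeks by a test of the change itself in limma's fit at an adjusted p under 0.05. The difference of Y136F from WT grew by 1.58 (log2) in Cdc25b, 1.51 in Stmn1, 1.44 in Cenpa, 1.79 in Foxm1, 2.20 in Mki67, 1.70 in Cenpf and 1.36 in Racgap1, with SEs from 0.21 in Cdc25b to 0.42 in Mki67. The 7 genes include the CDK1 activator, a spindle protein, centromere and kinetochore genes, a transcription factor and a cytokinesis gene. With labelled sex as a term the count was 1, and with slide as a fixed term 6.

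The difference of LAT KO from Y136F changed by -1.29 in Cdc25b, -2.26 in Mki67, -1.83 in Cenpf, -1.47 in Racgap1, -1.63 in Foxm1, -1.64 in Tpx2, -1.47 in Aurka, -1.70 in Ccna2, -1.92 in Ttk, -1.30 in Ube2c, -1.15 in Cenpa, -1.05 in Stmn1 and -0.95 in Prc1. All 7 genes of the first test are among these 13, and both tests share the Y136F arrays. Of this second test 0 genes were called with slide as a fixed term, 0 with sex as a term over the arrays whose sex-linked genes went with the label, 3 without the 2 arrays that went against it, and 5 with labelled sex as a term.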

How the results depend on the processing

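The largest counts kept their direction in every alternative. Genes called higher in Y136F than in WT at 4 weeks numbered 27 to 32 of 44 under other background correction, scaling, filters, probe choice, slide terms, no intensity trend, the compared arrays alone and kept outlier spots. Leaving out 1 array gave 23 to 26. It gave 28 to 33 in LAT KO against Y136F at 4 weeks, 24 to 31 in Y136F between times, 2 to 5 for the change of the Y136F effect and 2 to 22 for the change of the LAT KO minus Y136F difference. Replicate numbers were not treated as pairs in the main fit. Deviations of same-numbered mice correlated between -0.416 and 0.45. Mice of different numbers were not compared, so these values cannot show whether the numbers pair mice. With the replicate block the counts were 28, 35, 36, 6 and 9.

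Labelled sex as a term left 3 genes in Y136F against WT at 4 weeks, 13 in LAT KO against Y136F, 1 for the change of the Y136F effect and 5 for the change of the LAT KO minus Y136F difference. With label-consistent arrays and sex as a term, added after seeing the data, LAT KO against Y136F gave 23 and the change of its difference 0. Without the 2 arrays against their label, the changes of effect gave 16 and 3. Slide as a fixed term gave 19 in Y136F over time and 0 for the change of the LAT KO minus Y136F difference. Quantile normalization gave 7 for that change and the compared arrays alone 6. The change of the Y136F effect had 14 genes with the compared arrays alone, 4 without an intensity trend and 20 with array weights. Array weights, under which 15.6% of everything tested was called in Y136F against WT at 4 weeks, also gave 2 genes in Y136F against WT at 1 week, 5 and 2 in LAT KO against WT at 4 and 1 weeks, 9 in LAT KO against Y136F at 1 week and 4 in WT over time. The causes were not tested.

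Signs turned, for Y136F against WT at 4 weeks, in genes that were not called. Cdc25c was at 0.044 after quantile normalization, 0.04 in the series matrix, 0.91 as the mean of its probes, 0.003 with array weights, 0.093 with the share of spots above background as a term and 1.85 on its other probe. Plk1 was at 0.01 with the share of spots as a term and 0.028 with sex from sex-linked genes. Bub1 was at 0.90 as the mean of its probes and 2.07 on the other. Kif20a was at 0.025 and 0.03 in the quantile and series matrix values, 0.61 with labelled sex and with consistent arrays, and 0.11 and 0.12 with the share of spots and with sex from genes. Kif2c was at 0.03, 0.021, 0.35, 0.33, 0.13 and 0.14 in these same fits, and Kif4 at -0.024 with sex from genes. Without 1 array Cdc25c ranged from -0.151 to 0.119, Plk1 from -0.214 to 0.049, Kif20a from -0.221 to 0.124 and Kif2c from -0.21 to 0.019. Cdk1, which was called, was at -0.28 on its other probe.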
